A study of Mus musculus with 14 samples.

Results

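Enzymes that build and sulfate glycosaminoglycans, the sugar chains of proteoglycans, were followed in cardiac fibroblasts of the mouse through scar formation after myocardial infarction (MI). They were taken as a list of 41 gene symbols, and for each symbol the row with the highest mean signal was used. Of the 41 symbols 37 have a named row, among 19494 genes tested, and Chpf2, Glce, Ndst1 and Slc35b2 were not analysed here. RNA came from about 50000 EGFP-positive cells per extract and was read on Clariom S Mouse arrays after labelling with the GeneChip 3' IVT Pico kit. All mice carried TCF21-MerCreMer and R26GFP on a C57BL/6 background and received tamoxifen, the controls included. The Cre protein is expressed from the Tcf21 locus and the reporter stays on once switched on, so the sort collects descendants of labelled cells whatever they have become. The left ventricle of uninjured hearts gave 3 arrays. Infarct tissue, collected after permanent ligation of the left coronary artery, gave 3 arrays on day 3, 3 on day 7, 2 in week 2 and 3 in week 4. The uninjured hearts had no sham operation named in the labels. The labels call the arrays biological replicates but do not say whether animals were pooled, and the ages of the mice of these arrays are not given in the sources used here.

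Glycosaminoglycan synthesis runs in a fixed order. A linkage tetrasaccharide is placed on a core protein, the next sugar commits the chain to chondroitin or to heparan, and a polymerase lengthens it. Epimerases then modify the chain, and sulfotransferases add sulfate taken from the donor PAPS. In the chondroitin branch sulfate goes mainly to the 4-O or 6-O position of N-acetylgalactosamine, and in the heparan branch to N, 2-O, 6-O and 3-O positions, where it forms binding sites for growth factors and antithrombin. In the heart these chains sit on matrix proteoglycans such as versican, decorin and biglycan and on cell surface syndecans and glypicans.

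The 3 members whose difference from uninjured fibroblasts passed the test at every time were all sulfotransferases, Hs3st1, Chst11 and Chst7, and their promoters are shown because these genes carry the main result. The windows are RefSeq sequence of GRCm38.p6, from 250 bases before to 50 bases after an annotated start, at chr5:39644582-39644881 on the minus strand for Hs3st1, chr10:82985247-82985546 on the plus strand for Chst11 and chrX:20059320-20059619 on the plus strand for Chst7. All 3 windows lie inside the annotated genes, whose outermost starts are at 39645592 for Hs3st1, 82984440 for Chst11 and 20058963 for Chst7. Sequence at those outermost starts is not shown. Both strands were searched for the GC box (GGGCGG), the CCAAT box, the TATA box (TATAAA), the AP-1 motif (TGANTCA), the TEAD motif (GGAATG) and the SRF CArG box. Capitals mark the matches, which do not overlap and are all GC or CCAAT boxes.
Hs3st1: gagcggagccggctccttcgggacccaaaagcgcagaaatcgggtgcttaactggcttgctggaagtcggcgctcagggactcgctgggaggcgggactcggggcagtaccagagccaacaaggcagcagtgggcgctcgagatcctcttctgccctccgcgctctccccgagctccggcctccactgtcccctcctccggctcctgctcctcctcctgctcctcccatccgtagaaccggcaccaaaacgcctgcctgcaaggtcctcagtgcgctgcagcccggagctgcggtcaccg
Chst11: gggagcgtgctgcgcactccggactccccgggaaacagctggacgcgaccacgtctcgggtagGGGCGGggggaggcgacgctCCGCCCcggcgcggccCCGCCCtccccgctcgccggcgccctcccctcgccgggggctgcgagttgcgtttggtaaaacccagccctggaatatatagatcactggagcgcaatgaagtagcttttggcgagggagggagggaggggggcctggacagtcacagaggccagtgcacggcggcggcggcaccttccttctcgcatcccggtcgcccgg
Chst7: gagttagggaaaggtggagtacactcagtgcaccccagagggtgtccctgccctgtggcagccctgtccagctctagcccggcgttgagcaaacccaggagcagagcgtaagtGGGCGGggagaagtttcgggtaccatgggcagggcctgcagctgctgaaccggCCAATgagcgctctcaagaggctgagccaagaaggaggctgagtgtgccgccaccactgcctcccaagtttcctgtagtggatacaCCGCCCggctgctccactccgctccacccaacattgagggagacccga
The Chst11 window held 3 GC boxes, the Chst7 window 2 GC boxes and 1 CCAAT box, and the Hs3st1 window none of these letters. Windows were found for 30 member symbols, 38 windows in all. A GC box was in 24 of them and in 35.7% of all 32851 windows, a CCAAT box in 17 against 37.4%, an AP-1 motif in 1 against 7.81%, a TEAD motif in 8 against 14.7%, a TATA box in 2 against 13.6%, and an SRF CArG box in 0 against 1.63%. The median member window held 23 CG pairs and the median of all windows 7. These matches describe the letters of the windows and say nothing of which factors act there.

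Signals are on a log2 scale as deposited, so a difference of 1 is a doubling, and they compare 1 gene between arrays but not different genes with each other. Background was put at 5.89, the level under which 95% of the means of 1410 olfactory or vomeronasal receptor genes lay. limma tested changes over the 14 arrays together, and the threshold was a Benjamini-Hochberg adjusted p under 0.05 across all genes. The arrays numbered 1 of each group stood apart from the others, with 7075 genes (36.3%) and 16 members (43.2%) differing between these 5 arrays and the rest, so values from a limma fit blocked on replicate number (the replicate block) are given where they change a call. Both 2-week arrays, 7-day array 2 and 4-week array 1 had Uty and Kdm5d, which are Y-linked, under background, and calls that were lost when the fit was blocked on this class are given beside the result. As no uninjured array is in the class, this block separates the 2-week differences from it only through the 7-day and 4-week arrays. A 2-week call lost under it therefore cannot decide between time and class. The 9 measured fibroblast markers lay above background in every group but were not steady. Against uninjured limma called 4 of them higher and 2 lower at 3 days (6.74% and 5.81% of all genes). At 7 days 4 were higher and 1 lower (4.62% and 3.49%), and at 2 weeks 4 and 1 (1.30% and 1.18%). At 4 weeks 2 were higher and 0 lower (0.995% and 0.913%). Macrophage markers (14 measured) summed to linear signals of 709 to 971 in uninjured samples, 1060 to 3430 at 3 days, 10400 to 53100 at 7 days, 1260 to 2120 at 2 weeks and 732 to 1290 at 4 weeks, and 12 of them were higher at 7 days. Endothelial markers (8 measured) summed to 5260 to 6310, 745 to 1420, 2700 to 5800, 1620 to 9720 and 2430 to 2870 in the same order, cardiomyocyte markers (8 measured) to 2560 to 12900, 721 to 934, 938 to 1540, 1060 to 2110 and 966 to 6360, and mural markers (7 measured) to 2620 to 4760, 1310 to 1880, 2880 to 5630, 1490 to 3040 and 2160 to 3000. Endothelial, cardiomyocyte and mural sums were thus lower on every 3-day array than on any uninjured array. Fewer cells of a type and less RNA per cell cannot be told apart in such samples, and the part of these other cells in the members' changes was not tested.

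Of the 37 members 26 were above background on every array, 2 (B3gat3 and Chst3) were below it on every array, and 9 were mixed. By limma's F test over the 4 differences from uninjured fibroblasts 13 members (35.1%) differed among the 5 groups, against 15.4% of all genes, and 11 of the 13 also changed at least 2-fold at 1 or more times. These 11 were 29.7% of the members, against 12.1% of all genes. Against uninjured fibroblasts 8 members changed at 3 days, where 12.5% of all genes did, 5 of them higher (6.74% of all genes) and 3 lower (5.81%). At 7 days 10 changed (8.11% of all genes), 7 higher (4.62%) and 3 lower (3.49%). At 2 weeks 5 changed (2.48%), 3 higher (1.30%) and 2 lower (1.18%), and at 4 weeks 4 (1.91%), 2 higher (0.995%) and 2 lower (0.913%). The share of members called was thus 21.6%, 27.0%, 13.5% and 10.8% in order of time. At an unadjusted p under 0.05 the counts were 14, 17, 10 and 8, beside 22.9%, 17.5%, 12.0% and 8.77% of all genes. Arrays did not overlap the uninjured ones in 9 members upwards (12.4% of all genes) and 5 downwards (12.6%) at 3 days, 11 (11.0%) and 4 (8.86%) at 7 days. In week 2 the numbers were 12 (11.4%) and 4 (13.4%), and in week 4 they were 6 (6.47%) and 5 (5.87%). With the replicate block the counts were 13, 14, 6 and 5, where 19.1%, 12.6%, 4.26% and 3.45% of all genes were called. Leaving out 1 array moved the 3-day count to between 6 and 12, the latter without uninjured array 1. The 2-week count was 2 without either of the 2-week arrays, 3 without uninjured array 2 or 3, and 7 without 4-week array 1. For the fits without 1 array no share of all genes is given, so their counts do not show whether members moved more than other genes. Across the measured members the median log2 fold change was 0.26, 0.23, 0.22 and 0.08 at the 4 times, and over all genes -0.02, 0.02, -0.02 and 0.01.

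**Figure D1:**
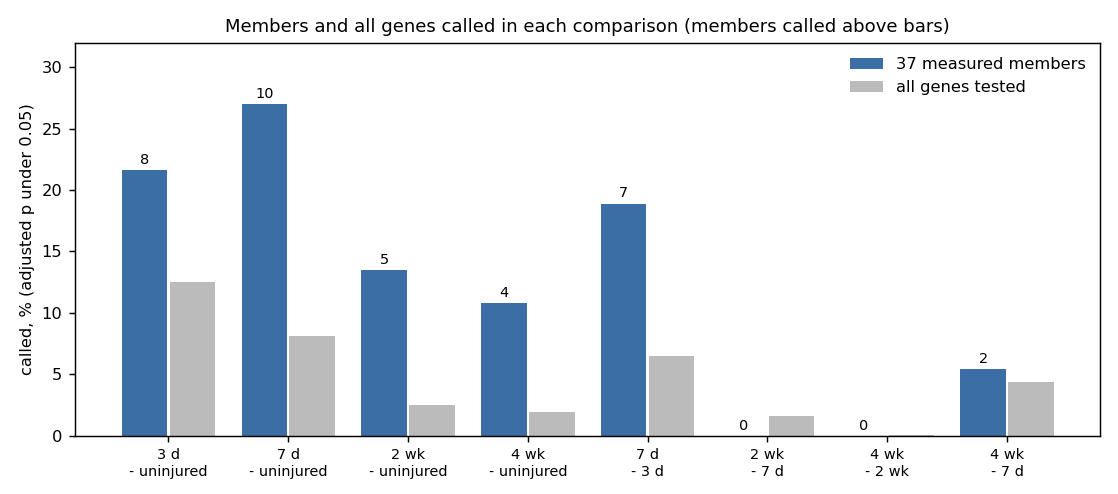
Share of the 37 measured members (blue) and of all 19494 genes tested (grey) called at an adjusted p under 0.05 by limma in each of 8 comparisons, in percent; the number above each blue bar is the count of members. Members called range from 0 in the last steps to 10 at 7 days.

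Chst11, a chondroitin 4-O-sulfotransferase, gave the largest rise of the list. Its log2 signal was 8.57, 8.51 and 8.11 in uninjured fibroblasts, 12.97, 11.80 and 12.16 at 3 days, 10.64, 10.42 and 9.78 at 7 days, then 10.40 and 10.23 at 2 weeks, with 10.53, 10.12 and 9.87 at 4 weeks. Every array after MI was above every uninjured array, and the 3-day arrays were above all others. The rise at 3 days was 15.1-fold (log2 fold change 3.92, SE 0.309, 95% interval 3.25 to 4.58, adjusted p = 2.63e-06), the 75th largest of 19494 genes. It then stood at 3.69-fold at 7 days (adjusted p = 0.00142), 3.78-fold at 2 weeks (adjusted p = 0.00777) and 3.44-fold at 4 weeks (adjusted p = 0.00695). Between 3 and 7 days the log2 difference was -2.03 (adjusted p = 0.00176), and the later steps did not pass the test. The 2-week call rests on few arrays, with adjusted p = 0.106 without 2-week array 1, 0.0782 without 2-week array 2 and 0.296 once blocked on the Uty and Kdm5d class. Chst12, the other widely expressed 4-O-sulfotransferase of chondroitin, did not pass the test at any time, and its group means stayed between 11.72 and 12.16.

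Chst7, one of the pair of enzymes that put sulfate on the 6-O position of chondroitin, went the other way. Its signal was 9.46, 9.72 and 9.75 in uninjured fibroblasts, 7.41, 7.26 and 6.78 at 3 days, 7.13, 7.11 and 7.31 at 7 days, then 7.43 and 7.31 at 2 weeks, with 7.64, 7.87 and 8.03 at 4 weeks. No array after MI reached the uninjured range. The fall was 5.64-fold at 3 days (log2 fold change -2.50, SE 0.204, adjusted p = 3.69e-06), 5.50-fold at 7 days (adjusted p = 6.2e-06), 4.84-fold at 2 weeks (adjusted p = 1.01e-04) and 3.48-fold at 4 weeks (adjusted p = 3.01e-04). The 4-week arrays were above the 7-day arrays by 0.66 on the log2 scale, which did not pass the test (adjusted p = 0.0975; 0.0486 with the arrays numbered 1 as a block). The other 6-O-sulfotransferase, Chst3, was under background on every array, between 4.48 and 5.31, so of the pair Chst7 alone had a level above background.

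Hs3st1, which adds the 3-O-sulfate that completes the antithrombin-binding site of heparan sulfate, had the largest fall of the list. Its signal was 11.17, 11.33 and 11.26 in uninjured fibroblasts, 8.84, 8.26 and 8.73 at 3 days, 7.47, 7.26 and 7.47 at 7 days, then 8.02 and 8.13 at 2 weeks, with 8.31, 8.82 and 9.02 at 4 weeks. The uninjured arrays were tight (mean 11.25 ± 0.08 SD, n = 3), and the highest array after MI, 9.02, was well below them. The fall was 6.26-fold at 3 days (log2 fold change -2.65, SE 0.219, adjusted p = 4.06e-06), 14.5-fold at 7 days (log2 fold change -3.86, 95% interval -4.33 to -3.39, adjusted p = 1.17e-07), 9.07-fold at 2 weeks (adjusted p = 9.84e-06) and 5.79-fold at 4 weeks (adjusted p = 3.78e-05). At 7 days it ranked 23rd among the falls of all 19494 genes. The 7-day arrays were below the 3-day arrays (log2 difference -1.21, adjusted p = 0.00489), and the 4-week arrays were above the 7-day arrays (1.32, adjusted p = 0.00317) and still below the uninjured ones. The endothelial marker sum was lower on every 3-day array than on any uninjured array, with 2 of the 8 markers called lower. In 2-week array 1 they summed to 9720, above every uninjured array, with Hs3st1 at 8.02. In 2-week array 2 they summed to 1620, with Hs3st1 at 8.13. On 7-day arrays 1, 2 and 3 the sums were 5080, 5800 and 2700, with Hs3st1 at 7.47, 7.26 and 7.47. On 4-week arrays 1, 2 and 3 they were 2490, 2430 and 2870, with Hs3st1 at 8.31, 8.82 and 9.02. The part of endothelial cells in the fall of Hs3st1 was not tested.

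**Figure D2:**
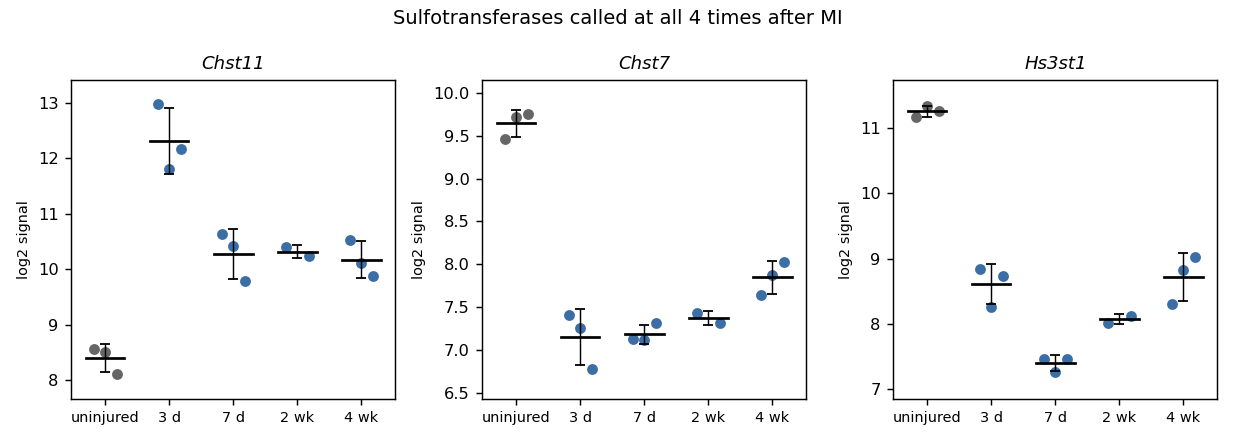
Log2 signal of Chst11, Chst7 and Hs3st1 on each array (points) in uninjured fibroblasts (grey) and at 4 times after MI (blue); horizontal lines are group means and error bars the SD of 3 arrays (2 at 2 weeks). In each panel all arrays after MI lie on 1 side of the uninjured arrays, above them for Chst11 and below for Chst7 and Hs3st1.

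Over all genes 173 (0.887%) were called at each of the 4 times, and by the adjusted F-test p Hs3st1 ranked 35th, Chst7 87th and Chst11 166th of 19494. Their calls all held with the replicate block. Without the 5 arrays numbered 1 the calls at 3 days, 7 days and 4 weeks held, while 2 weeks was left with a single array. Against uninjured fibroblasts the methods' Tukey test kept Chst7 and Hs3st1 but lost Chst11 at 7 days, 2 weeks and 4 weeks (adjusted p = 0.0753, 0.297 and 0.296). The methods' t-test with adjustment lost Chst11 at the same times (adjusted p = 0.105, 0.223 and 0.252). It also lost Chst7 and Hs3st1 at 2 weeks (adjusted p = 0.136 and 0.105) and at 4 weeks (0.173 for both).

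Among the enzymes that supply precursors, Papss2 rose and Ugdh dipped. Papss2, which makes the sulfate donor PAPS, gave 9.62, 8.94 and 9.28 in uninjured fibroblasts, 11.20, 10.69 and 11.03 at 3 days, 10.29, 9.77 and 9.95 at 7 days, then 10.71 and 10.52 at 2 weeks, with 10.91, 10.20 and 10.21 at 4 weeks. All arrays after MI were above the uninjured ones. It was 3.23-fold higher at 3 days (adjusted p = 4.86e-04), 2.52-fold at 2 weeks (adjusted p = 0.0217) and 2.23-fold at 4 weeks (adjusted p = 0.0313). At 7 days it was 1.65-fold higher (adjusted p = 0.121; 0.0119 with the replicate block), below its 3-day level by a log2 difference of -0.97 (adjusted p = 0.036). Its calls other than that at 3 days changed when single arrays were left out. At 2 weeks the adjusted p was 0.22 and 0.136 without 2-week array 1 or 2, 0.0956 and 0.0682 without uninjured array 2 or 3, and 0.415 once blocked on the Uty and Kdm5d class. At 4 weeks it was 0.137, 0.0501 and 0.0524 without 4-week array 1, 2 or 3, and 0.164 and 0.103 without uninjured array 2 or 3, and 0.0954 once blocked on that class. For the step from 3 to 7 days the adjusted p became 0.136 and 0.0949 without 3-day array 1 or 3, 0.13 and 0.122 without 7-day array 2 or 3, and 0.0508 without either 2-week array.

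Ugdh, the dehydrogenase that makes UDP-glucuronate for both chain types and for hyaluronan, gave 14.02, 14.45 and 14.02 in uninjured fibroblasts, 14.94, 14.10 and 14.83 at 3 days, 13.60, 12.19 and 12.80 at 7 days, then 14.25 and 14.41 at 2 weeks, with 13.66, 13.72 and 13.34 at 4 weeks. The 7-day arrays, which spread widely, and the 4-week arrays lay below the uninjured ones. The fall at 7 days was 2.46-fold (log2 fold change -1.30, SE 0.322, adjusted p = 0.0226), and it lost the call without uninjured array 2 (adjusted p = 0.102), 7-day array 2 (0.105) or 7-day array 3 (0.0776), and once blocked on the Uty and Kdm5d class (0.0641). The 4-week value, 1.51-fold lower, did not pass (adjusted p = 0.718). From 3 to 7 days the log2 difference was -1.76 (adjusted p = 0.00527), and from 7 days to 2 weeks the difference was 1.47 (adjusted p = 0.0608; 0.0389 with the replicate block and 0.0111 without 7-day array 1). On 7-day arrays 1, 2 and 3 the macrophage sums were 53100, 10400 and 33000, with Ugdh at 13.60, 12.19 and 12.80. The part of macrophages in the fall of Ugdh was not tested. The other PAPS synthase, Papss1, and the sulfate transporter Slc26a2 did not pass the test at any time. Slc26a2 was 1.89-fold higher at 3 days (adjusted p = 0.0864; 0.0275 with the replicate block).

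The linkage enzymes gave no call against uninjured fibroblasts, in Xylt1, Xylt2, B4galt7, B3galt6 or B3gat3. Xylt2, one of the xylosyltransferases that start every chain, differed among the groups (F test adjusted p = 0.00471), and its 3-day and 7-day means lay on opposite sides of uninjured. Its means were 8.47 in uninjured fibroblasts, 7.77 at 3 days and 9.16 at 7 days, a step of 2.62-fold (adjusted p = 0.0021). Against uninjured its log2 fold change was -0.70 at 3 days (adjusted p = 0.0518; 0.0368 with the replicate block) and 0.69 at 7 days (adjusted p = 0.0767). B3gat3 was under background on every array, B4galt7 and B3galt6 lay around it, and Xylt1 means ran from 7.83 to 8.39.

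Each of the 3 chondroitin polymerases measured, Chsy1, Chsy3 and Chpf, was called higher at 7 days. Chsy1, a chondroitin synthase, gave 11.23, 11.00 and 10.97 in uninjured fibroblasts, 13.22, 12.68 and 12.32 at 3 days, 12.50, 12.09 and 12.55 at 7 days, then 12.43 and 12.19 at 2 weeks, with 12.23, 11.44 and 11.59 at 4 weeks. The 3-day mean was the highest, and no array overlapped the uninjured range. It was 3.20-fold higher at 3 days (adjusted p = 6.99e-04), 2.49-fold at 7 days (adjusted p = 0.006), 2.37-fold at 2 weeks (adjusted p = 0.0408) and 1.61-fold at 4 weeks, which did not pass (adjusted p = 0.369). The 2-week call was lost with each array centred on its median (adjusted p = 0.0603), without 2-week array 1 or 2 (0.334 and 0.184), without uninjured array 2 or 3 (0.13 and 0.132), without 3-day array 2 (0.0582), 7-day array 3 (0.0558) or 4-week array 3 (0.0568), and once blocked on the Uty and Kdm5d class (0.516).

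Chpf, the chondroitin polymerizing factor that works together with the synthases, was called higher at 7 days only. Its signal was 12.27, 12.56 and 12.80 in uninjured fibroblasts, 12.57, 12.29 and 12.67 at 3 days, 13.89, 14.08 and 14.45 at 7 days, then 13.50 and 13.52 at 2 weeks, with 13.04, 13.59 and 13.87 at 4 weeks. The 3-day arrays lay inside the uninjured range and all later arrays above it. At 7 days it was 3.03-fold higher (log2 fold change 1.60, SE 0.243, adjusted p = 7.88e-04), after a step of 3.10-fold from 3 days (adjusted p = 0.00155). The rises of 1.95-fold at 2 weeks and 1.94-fold at 4 weeks did not pass the test (adjusted p = 0.0934 and 0.0707) but did with the replicate block (0.00815 and 0.00926) and without 4-week array 1 (0.049 and 0.0279). On 7-day arrays 1, 2 and 3 the macrophage sums were 53100, 10400 and 33000, with Chpf at 13.89, 14.08 and 14.45. The part of macrophages in the rise of Chpf was not tested.

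Chsy3, the other chondroitin synthase measured, gave 8.05, 8.11 and 7.82 in uninjured fibroblasts, 9.51, 8.59 and 8.72 at 3 days, 9.12, 9.22 and 10.49 at 7 days, then 8.67 and 8.54 at 2 weeks, with 8.21, 8.52 and 8.57 at 4 weeks. The highest value was a single 7-day array, and all arrays after MI exceeded the uninjured ones. Its 7-day rise of 3.07-fold passed the test (adjusted p = 0.00692) and no other time did. The 3-day value was 1.93-fold (adjusted p = 0.0859; 0.0223 without 7-day array 3), and the fall from 7 days to 4 weeks, -1.18 on the log2 scale, had an adjusted p of 0.0679 (0.045 with the replicate block). Csgalnact1 and Csgalnact2, which add the sugar that commits a chain to chondroitin, did not pass at any time, and the SD of Csgalnact2 within a group reached 1.23 at 7 days.

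Chst15 adds a second sulfate to chondroitin that is already 4-sulfated. It gave 5.82, 6.09 and 5.78 in uninjured fibroblasts, around background, then 7.00, 6.51 and 5.90 at 3 days, 7.74, 7.36 and 7.23 at 7 days, then 7.31 and 6.36 at 2 weeks, with 6.95, 6.45 and 5.92 at 4 weeks. The 7-day arrays were clear of the uninjured ones, whereas at 3 days and 4 weeks the lowest array fell within their range. It was 2.92-fold higher at 7 days (adjusted p = 0.00923), and 7-day array 1, with the most macrophage signal, had the highest of the 7-day values. Array 1 was also the highest at 3 days, 2 weeks and 4 weeks, and the arrays numbered 1 were above the others by 0.55 on the log2 scale. The part of macrophages in the rise of Chst15 was not tested. The fall from 7 days to 4 weeks was -1.01 on the log2 scale (adjusted p = 0.128; 0.0164 with the replicate block). Dse, the epimerase that turns chondroitin into dermatan, was 1.85-fold to 2.07-fold above uninjured at all 4 times, with no overlap of arrays, and did not pass the test (adjusted p from 0.117 to 0.415). With the replicate block its 3-day difference passed (adjusted p = 0.0356). Of the fits without 1 array only that without 4-week array 1, its highest array at 13.82, passed Dse. It did so at 3 days, 7 days and 2 weeks (0.0126, 0.0209 and 0.0389). That array is in none of these comparisons, and the log2 fold changes stayed at 0.94, 0.91 and 1.05. Ust, the uronyl 2-O-sulfotransferase, was 1.82-fold lower at 7 days (adjusted p = 0.0671; 0.0421 with the replicate block and 0.0452 with centring). Chst14, which sulfates dermatan at the 4-O position, did not pass at any time.

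**Figure D3:**
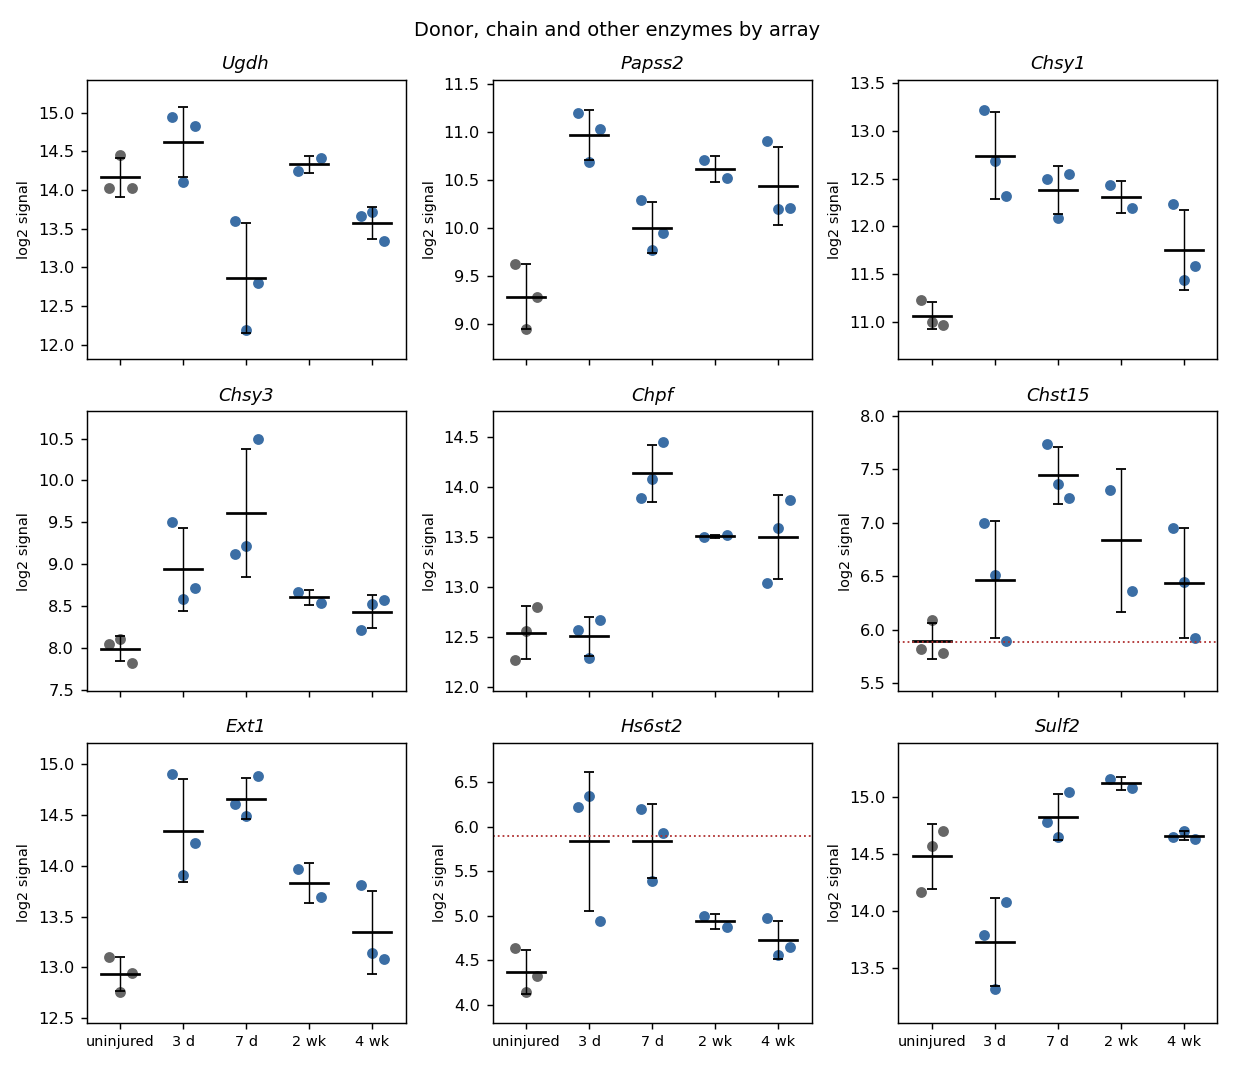
Log2 signal per array (points) of 9 members, with group means (lines) and SD (error bars; 3 arrays a group, 2 at 2 weeks), in uninjured fibroblasts (grey) and after MI (blue); the dotted red line is the background level of 5.89. Chpf is at its uninjured level at 3 days and above it at 7 days, while Ugdh is lowest at 7 days.

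In the heparan branch the polymerase subunit Ext1 rose while its partner Ext2 did not pass the test. Ext1 gave 13.10, 12.76 and 12.94 in uninjured fibroblasts, 14.90, 13.91 and 14.22 at 3 days, 14.61, 14.49 and 14.88 at 7 days, then 13.97 and 13.69 at 2 weeks, with 13.81, 13.14 and 13.08 at 4 weeks. Arrays up to 2 weeks were clear of the uninjured range, and the lowest 4-week array lay just inside it. The rise was 2.66-fold at 3 days (adjusted p = 0.00297) and 3.31-fold at 7 days (adjusted p = 0.00101), and the 2-week value of 1.86-fold did not pass (adjusted p = 0.186). Between 7 days and 4 weeks the log2 difference of Ext1 was -1.32 (adjusted p = 0.0122), a call lost without 7-day array 3 (0.0625) or 4-week array 2 or 3 (0.0655 and 0.0627). Ext2 means ran from 11.52 to 12.17, with a log2 fold change of 0.28 at 3 days and 0.09 at 7 days. Extl3, which starts the heparan chain, was 1.94-fold higher at 3 days and 2.06-fold at 7 days (adjusted p = 0.15 and 0.154), and passed with the replicate block (0.0128 and 0.0113) or without uninjured array 1 (0.0162 and 0.0184), which at 10.51 stood above the other uninjured arrays at 9.10 and 9.17. Extl1 and Extl2 differed from uninjured by at most 0.26 on the log2 scale.

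Besides Hs3st1, Hs6st2 was the heparan sulfotransferase that passed the test. This 6-O-sulfotransferase gave 4.64, 4.15 and 4.33 in uninjured fibroblasts, 6.22, 6.34 and 4.94 at 3 days, 6.20, 5.39 and 5.93 at 7 days, then 5.0 and 4.88 at 2 weeks, with 4.97, 4.56 and 4.65 at 4 weeks. Only 4 arrays, all at 3 or 7 days, reached above background, and the means of all groups were under it, so no fold is given. Against uninjured the log2 difference was 1.46 at both times. The adjusted p was 0.00888 at 3 days (0.0517 without 3-day array 2) and 0.0128 at 7 days (0.0603 without uninjured array 2 and 0.0529 without 7-day array 3). The relative Hs6st1 was above background on 2 arrays, both uninjured. Hs2st1 and Ndst2, the 2-O- and an N-sulfotransferase, did not pass at any time, and Ndst2 was 1.63-fold higher at 7 days (adjusted p = 0.102; 0.0427 with the replicate block). Ndst3 reached above background on 1 array only, at 3 days, when its log2 difference from uninjured was 0.77 (adjusted p = 0.114; 0.0243 with the replicate block). The other 3-O-sulfotransferases measured, Hs3st3a1 and Hs3st3b1, were above background on 11 and 9 arrays. Group means ran from 6.11 to 6.81 for Hs3st3a1 and from 5.83 to 6.15 for Hs3st3b1. Both had log2 fold changes between -0.62 and 0.07 and did not pass.

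The endosulfatases remove 6-O-sulfate from finished heparan chains outside the cell. Sulf2 ran from 14.16 to 14.70 in uninjured fibroblasts, from 13.31 to 14.08 at 3 days, and from 14.63 to 15.16 on the later arrays. The 3-day arrays were below all others. The fall at 3 days was 1.68-fold and close to the threshold (adjusted p = 0.0435), and it was lost without uninjured array 2 or 3 (0.136 and 0.162), 3-day array 1 or 2 (0.0863 and 0.2), any of the 7-day or 2-week arrays (0.0506 to 0.0593), or 4-week array 2 or 3 (0.061 and 0.0586), and once blocked on the Uty and Kdm5d class (0.0554). Between 3 and 7 days Sulf2 rose 2.14-fold (adjusted p = 0.00952; 0.0548 without 7-day array 3). Sulf1 had group means between 14.80 and 15.36 and did not pass at any time.

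**Figure D4:**
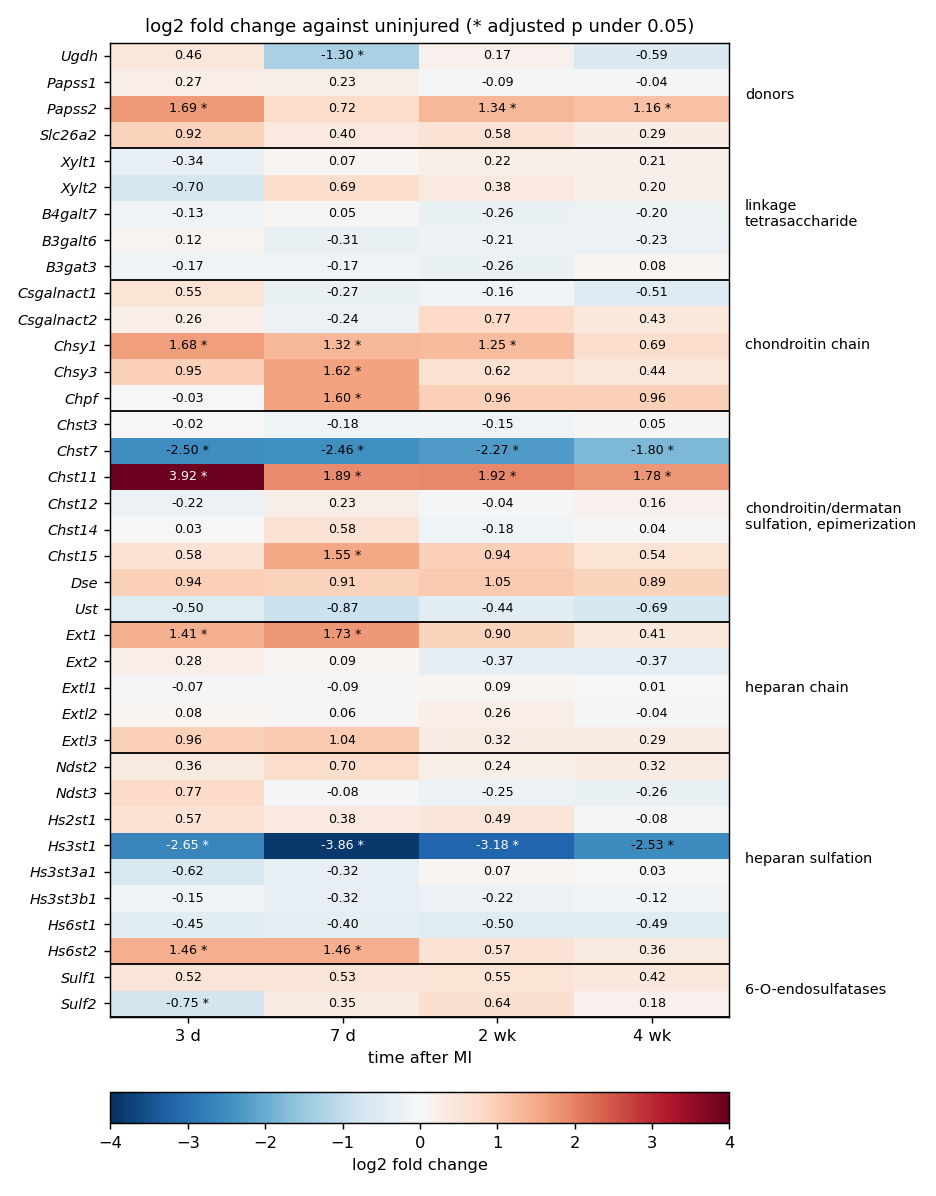
Log2 fold change against uninjured fibroblasts of the 37 measured members (rows, grouped by role) at the 4 times after MI (columns); red is higher, blue lower, and an asterisk marks an adjusted p under 0.05 by limma. Chst11, Chst7 and Hs3st1 carry an asterisk at all 4 times, and no linkage enzyme carries one.

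Between 3 and 7 days 7 members changed (18.9%; 6.48% of all genes), Xylt2, Chpf and Sulf2 upwards (3.34% of all genes) and Ugdh, Papss2, Chst11 and Hs3st1 downwards (3.14%). At an unadjusted p under 0.05 there were 12 (17.8% of all genes), and arrays did not overlap in 6 members upwards (11.5%) and 4 downwards (9.63%). With the replicate block 10 changed (12.3% of all genes), with Csgalnact1 (adjusted p = 0.017) and Ndst3 (0.0221) downwards and Chst15 (0.014) upwards added. Csgalnact1 was above background on only 4 arrays, 2 uninjured and 2 at 3 days, and Ndst3 on only 1, at 3 days. Later steps held few or no calls. Between 7 days and 2 weeks limma called 0 members (1.59% of all genes, 0.400% higher and 1.19% lower), 8 at an unadjusted p under 0.05 (13.8%), 1 with the replicate block (4.32%), 5 by the methods' t-test without adjustment (9.79%) and 0 by that test or Tukey's test with it. Arrays did not overlap in 6 members upwards (12.6%) and 8 downwards (16.8%). Between 2 and 4 weeks it called 0 (0.0256%, 0.0103% higher and 0.0154% lower), 1 at an unadjusted p (4.87%), 0 with the block (0.0308%), 2 by the methods' t-test without adjustment (5.26%) and 0 by it or Tukey's test with it, and arrays did not overlap in 3 members upwards (11.2%) and 4 downwards (8.15%). Between 7 days and 4 weeks Hs3st1 (higher; 1.57% of all genes) and Ext1 (lower; 2.79%) changed, 2 members where 4.36% of all genes did. At an unadjusted p there were 11 (14.4%), and arrays did not overlap in 3 members upwards (8.06%) and 9 downwards (9.95%). With the replicate block 6 changed (7.99% of all genes), with Chsy3, Chpf, Chst15 and Hs6st2 added, all lower at 4 weeks. Without 7-day array 3 or 4-week array 2 or 3 the Ext1 call was lost and 1 member was left.

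Of 20 glycosaminoglycan enzymes measured outside the list 2 rose at 3 days (6.74% of all genes) and 1 fell at 7 days (3.49%). Pxylp1, the phosphatase that removes a phosphate from the linkage xylose so that the chain can grow, rose by 5.34-fold at 3 days (adjusted p = 6.14e-05), and Chst2, a sulfotransferase of N-acetylglucosamine, by 2.67-fold (adjusted p = 0.0193). Ugp2, which makes UDP-glucose, the substrate of Ugdh, was 2.01-fold lower at 7 days (adjusted p = 0.00863). At 2 and 4 weeks limma called 0 of the 20 (2.48% and 1.91% of all genes). Of 11 measured lysosomal enzymes of glycosaminoglycan breakdown 2 rose (6.74% of all genes) and 2 fell (5.81%) at 3 days. At 7 days 4 rose (4.62%), and 0 passed at 2 or 4 weeks. Galns, the lysosomal 6-sulfatase of galactosamine, rose by 2.29-fold at 3 days and 3.41-fold at 7 days (adjusted p = 0.00441 and 3.64e-04), and Idua, the iduronidase, was 2.98-fold lower at 3 days (adjusted p = 1.92e-04). At 7 days macrophage markers were also highest, and their part in the rises of this list was not tested.

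Core proteins moved in both directions. Of 12 chondroitin or dermatan sulfate core proteins 1 fell at 3 days (5.81% of all genes). At 7 days 3 rose (4.62%) and 1 fell (3.49%), at 2 weeks 0 passed (2.48%) and at 4 weeks 1 rose (0.995%). Acan, the aggrecan core of cartilage, had a mean of 6.39 ± 0.63 (SD, n = 3) in uninjured fibroblasts and ran from 8.77 to 12.84 at 7 days, where it was 14.8-fold higher with an SD of 2.23 (adjusted p = 0.00505). Cspg4, the NG2 proteoglycan that is also a marker of mural cells, rose by 9.15-fold at 7 days (adjusted p = 1.35e-04) and 4.33-fold at 4 weeks (adjusted p = 0.0103). Of 14 heparan sulfate cores 2 rose (6.74% of all genes) and 4 fell (5.81%) at 3 days, and 6 rose (4.62%) and 2 fell (3.49%) at 7 days. At 2 weeks 1 rose (1.30%), and at 4 weeks 1 rose (0.995%) and 1 fell (0.913%). The syndecan Sdc1 rose at every time, by 5.93-fold, 6.93-fold, 4.82-fold and 4.34-fold (adjusted p = 9.16e-05, 6.1e-05, 0.0024 and 0.00183). Tgfbr3, the TGF-beta co-receptor betaglycan, was 2.50-fold and 6.35-fold lower at 3 and 7 days (adjusted p = 0.0204 and 2.14e-04), and the glypican Gpc3 was 6.07-fold lower at 3 days (adjusted p = 1.88e-04).

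**Figure D5:**
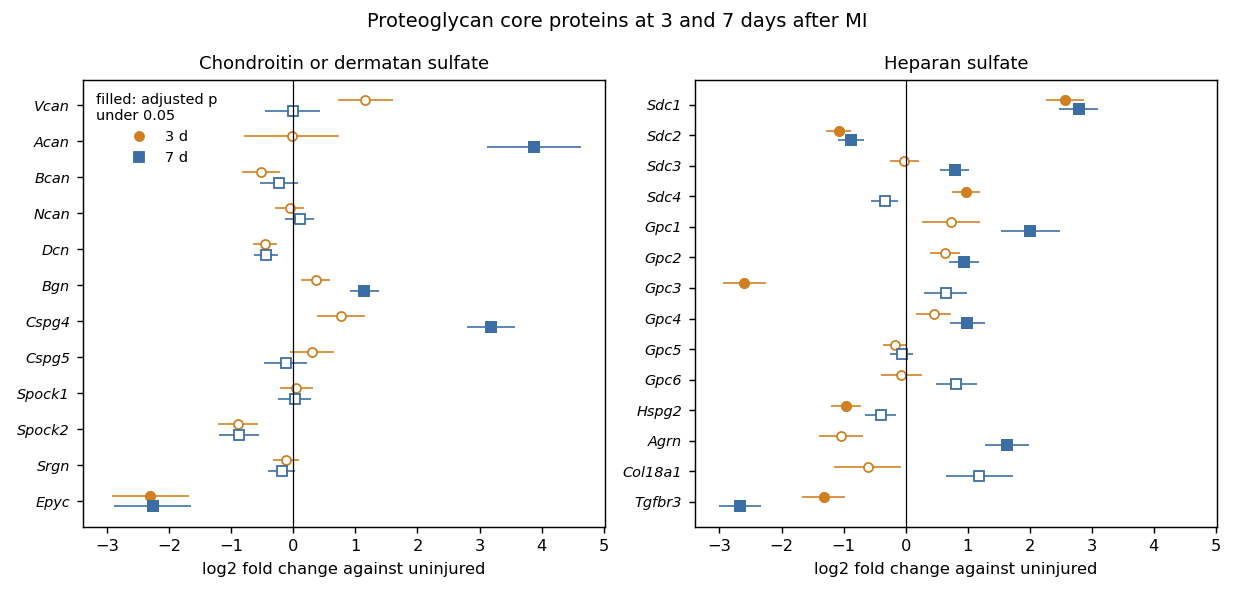
Log2 fold change against uninjured fibroblasts of 12 chondroitin or dermatan sulfate and 14 heparan sulfate core proteins at 3 days (orange circles) and 7 days (blue squares) after MI; bars are the standard error of the limma fit and filled symbols have an adjusted p under 0.05. Sdc1 is higher at both times and Tgfbr3 lower at both, while Acan and Cspg4 pass at 7 days but not at 3 days.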

How the data were processed

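RNA of sorted EGFP-positive cells from 14 mouse samples was measured on Clariom S Mouse arrays. The deposited values are log2 signals, 1 per transcript cluster and array, made by the authors with Affymetrix Expression Console according to their processing notes, and the study's methods name the Transcriptome Analysis Console for its own comparisons. The version of the former, the summarization method and the genome build are not given in the sources used here. Of 28846 rows 22142 are transcript clusters, 19527 of these have 1 gene symbol, and keeping the row with the highest mean for the 33 symbols with more than 1 row left 19494 genes. Array medians lay between 6.34 and 6.46 and arrays of a group correlated at 0.971 to 0.992, and no further scaling was applied. The number of arrays limits the precision.

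Analysis used R 4.3.3 and limma 3.58.1, with 1 mean per group and all arrays in the fit, with empirical Bayes (9 residual and 4.53 prior degrees of freedom) and Benjamini-Hochberg adjustment over all genes, called under 0.05. The code was tested on simulated data. Folds are back-transformed log2 differences, and none is given where both means are under background. Members that passed the F test and changed at least 2-fold are described with every array, others where a comparison called them, and of each further list the called genes with the largest changes. Sulf2 was added to a plot by array after its values were seen. The members and lists were chosen with earlier results of these data known, and no list was tested as a set. Alternatives were median centring, fits of only the compared groups, blocking on replicate number, on the arrays numbered 1 or on the Uty and Kdm5d class, leaving out the arrays numbered 1, a filter at background, eBayes with trend and robust options, the lowest row per symbol, the t-test and Tukey test that the study's methods name, and leaving out each array. Deviations from group means were correlated for 26 pairs of arrays from different groups with the same replicate number in the labels. All 26 correlated over 0.1 (0.12 to 0.63). Of all arrays, 9 correlated best with an array of their own number, and the others did not. Deviations cancel within a group, so the difference of the arrays numbered 1 can by itself make the remaining same-number arrays correlate. These correlations therefore cannot decide whether the number pairs the samples. The number served as a block in an alternative fit, and the main fit held the groups only. The block rests on the labels' numbers, and the labels do not say what the number marks. P-values measure the spread between these arrays. Gene names are those of the array's annotation, and promoter windows came from RefSeq.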

Additional observations from a re-analysis of the deposited data

Results flagged for a closer look

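9 steps between times after MI are listed here because the change from uninjured fibroblasts differed between 2 times by limma's test of that difference. From 3 to 7 days the log2 differences were -1.76 for Ugdh, -0.97 for Papss2, 1.39 for Xylt2, 1.63 for Chpf, -2.03 for Chst11, -1.21 for Hs3st1 and 1.10 for Sulf2 (adjusted p = 0.00527, 0.036, 0.0021, 0.00155, 0.00176, 0.00489 and 0.00952). From 7 days to 4 weeks they were -1.32 for Ext1 and 1.32 for Hs3st1 (adjusted p = 0.0122 and 0.00317). Chst11 and Chpf, in the sulfation and the polymerization of the same chain, moved in opposite directions between 3 and 7 days, and Hs3st1 reached its lowest level at 7 days and was higher again at 4 weeks. No group has 4 or more arrays, so single arrays were not screened for distance from their group.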

How the results depend on the processing

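Of 934 alternative values of the 36 calls of a member in a comparison, 821 stayed past the threshold in the same direction, 113 lost it and 0 reversed. No call was lost with the replicate block, the block or removal of the arrays numbered 1, the trend and robust options or the removal of uninjured array 1. The lowest row per symbol also lost none, but no member has more than 1 row, so its 36 values, counted among the 821, could move only through the adjustment over all genes. The filter at background lost none of the 34 calls it could give, and Hs6st2 was not tested under it. The methods' t-test lost 31 of the 36 with adjustment and 1 without, and their Tukey test lost 22 with adjustment.

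The counts of members called moved as follows, each time against uninjured and in order of time. The replicate block gave 13, 14, 6 and 5 (19.1%, 12.6%, 4.26% and 3.45% of all genes) in place of 8, 10, 5 and 4. The block of arrays numbered 1 gave 13 at 3 days. The methods' t-test with adjustment gave 3, 2, 0 and 0 (2.10%, 0.677%, 0% and 0.0205% of all genes), and without adjustment 10, 14, 9 and 7 (18.1%, 13.5%, 8.62% and 7.19%). The methods' Tukey test, with the adjustment over all genes added here, gave 5, 4, 2 and 2 (4.56%, 2.23%, 0.272% and 0.267%). At 2 weeks the fit of only the compared groups gave 3 and the block of arrays low in Uty and Kdm5d 2. From 3 to 7 days the adjusted t-test gave 0 (0.0256%) and the Tukey test 1 (0.728%) in place of 7. From 7 days to 2 weeks the replicate block gave 1 (4.32%) and the unadjusted t-test 5 (9.79%) in place of 0. The block of arrays numbered 1 gave 2 there and the filter at background 1. From 2 to 4 weeks the unadjusted t-test gave 2 (5.26%) in place of 0. From 7 days to 4 weeks the replicate block gave 6 (7.99%) in place of 2, and the block of arrays numbered 1 also 6. The t-test gave 0 with (0.0769%) and 6 without adjustment (11.4%), and the Tukey test 0 (0.610%). Leaving out 1 array gave 6 to 12, 8 to 11, 2 to 7 and 3 to 4 against uninjured, 5 to 7 from 3 to 7 days, 0 to 1 from 7 days to 2 weeks, 0 from 2 to 4 weeks and 1 to 3 from 7 days to 4 weeks. The F test passed 10 to 16 members over all alternatives. Shares of all genes are not given for the blocks on arrays numbered 1 and on Uty and Kdm5d, or for compared groups only. The same holds for the filter at background and the fits without 1 array. Their counts therefore do not show whether members moved more than other genes. The causes of these moves were not tested.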
